A study of Mus musculus with 36 samples.

Results

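The telomere-proximal ends of the mouse autosomes were described as the 570 windows of 100 kb that tile the last 3 Mb of chromosomes 1 to 19, 30 windows per chromosome, out of 24599 windows that tile these chromosomes in all. The end of a chromosome was taken as the highest position that any of the 24 libraries holds on it. For each library, the lesion positions in these windows were compared with those in the 3800 windows that lie 10 to 30 Mb from the same end, called the interior here. The density of a window is given in PPM, its positions per 1000000 positions of the library. The libraries came from 2 untreated male C57BL/6J mice aged 24 months. Bone marrow freed of red cells, brain, heart, liver, peripheral blood mononuclear cells (PBMCs, isolated over Ficoll) and motile sperm from the tail of the epididymis were each profiled for single-strand breaks (SSBs) and for apurinic/apyrimidinic (AP) sites, with 2 libraries per tissue and assay. Organs were ground whole, so each library is an average over all cell types of the tissue, and the tissue labels were not checked against marker genes, since the lesion lists hold no expression values and the RNA libraries of the series were not analysed here. Sperm DNA was extracted with a different kit from that of the other tissues, so that tissue and kit cannot be told apart there. All libraries of an assay come from 2 animals, and the p-values below measure the spread between libraries and not between 12 independent animals.

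An SSB is a cut in 1 strand of the DNA, and an AP site is a place where the base has been lost from the sugar-phosphate backbone. Both arise in every cell from hydrolysis, oxidation and the steps of base excision repair, and SSiNGLe and SSiNGLe-AP record their positions to the nucleotide. Mouse chromosomes are acrocentric: the centromere sits next to the telomere at the low-numbered end, so the end examined here lies far from the repeats of the centromere. The end used here is the highest recorded position and not the end of the numbered sequence, and the spans of Wls and Gm21814 run slightly past it. The telomere itself is a long array of TTAGGG repeats, and its distance from the end used here was not measured. The DNA next to the telomere, the subtelomere, is known in mammals for repeats, segmental duplications and recently expanded gene families.

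The SSB libraries held 225011 to 1041983 positions and the AP libraries 460719 to 963258. Of these, 6221 to 28485 (SSB) and 12626 to 28330 (AP) lay in the last 3 Mb, at least 2.59% and at most 2.996% of a library. No end window held fewer than 10 positions over the 24 libraries. The replicates of a tissue shared 10 to 100 identical positions in the end windows, at most 0.410% of the smaller library. No library thus repeated its replicate there. The intervals given for single libraries cover counting error only.

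The last 3 Mb of the 19 autosomes overlapped 1406 annotated gene spans, of which 726 were protein-coding, from 3 on chromosome 17 to 130 on chromosome 10. The protein-coding genes nearest to the ends belonged to different families. They included the vomeronasal receptor genes Vmn2r129 on chromosome 4 and Vmn2r87 on chromosome 10, Wls, which carries Wnt ligands to the cell surface, on chromosome 3, and Csf2ra, a subunit of the GM-CSF receptor, on chromosome 19. Of the 19 nearest genes, 17 had a promoter in the RefSeq sequences (build GRCm38.p6). Of these promoters, those of 4 genes with the most lesion positions are shown here, so that the sequence at the most often hit of these transcript starts can be read. The promoter of Wls had 8 positions, as many as each of the last 2 shown. The promoters shown hold 250 bases before and 50 after a transcript start. For Gm32856 this start lies inside the gene span, which begins at position 129263392. The sequences are written 5′ to 3′ on the strand of the gene, with matches to the telomere motif TTAGGG or its reverse complement CCCTAA in capitals.
Gm32856 promoter: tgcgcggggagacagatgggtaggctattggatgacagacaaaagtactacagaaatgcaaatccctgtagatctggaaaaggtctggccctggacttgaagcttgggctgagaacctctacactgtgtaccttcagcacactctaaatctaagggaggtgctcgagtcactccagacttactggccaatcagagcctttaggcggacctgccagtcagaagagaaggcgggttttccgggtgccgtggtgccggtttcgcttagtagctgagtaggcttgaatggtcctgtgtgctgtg
Mucl2 promoter: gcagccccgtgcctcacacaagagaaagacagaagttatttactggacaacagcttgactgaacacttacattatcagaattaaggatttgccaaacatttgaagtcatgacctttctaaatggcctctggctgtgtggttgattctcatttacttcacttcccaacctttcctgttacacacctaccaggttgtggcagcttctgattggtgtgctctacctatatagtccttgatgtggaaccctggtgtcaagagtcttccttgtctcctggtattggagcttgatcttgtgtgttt
Mrgprd promoter: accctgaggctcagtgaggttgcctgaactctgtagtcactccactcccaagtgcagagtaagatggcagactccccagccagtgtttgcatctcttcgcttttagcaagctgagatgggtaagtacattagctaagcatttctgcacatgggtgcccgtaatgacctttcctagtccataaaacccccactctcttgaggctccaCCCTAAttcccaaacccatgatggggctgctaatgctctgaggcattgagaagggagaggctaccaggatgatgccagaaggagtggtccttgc
Rfc3 promoter: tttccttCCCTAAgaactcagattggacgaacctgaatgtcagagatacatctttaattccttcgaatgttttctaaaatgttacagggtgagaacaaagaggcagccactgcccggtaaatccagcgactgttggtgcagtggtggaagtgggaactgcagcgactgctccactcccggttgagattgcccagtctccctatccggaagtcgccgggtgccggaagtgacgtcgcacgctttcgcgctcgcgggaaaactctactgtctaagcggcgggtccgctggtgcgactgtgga

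The promoter of Gm32856 (chr8:129263363-129263662, plus strand), 37361 bp from the end of chromosome 8, held 10 SSB and 3 AP positions in 6 of the 24 libraries. That of Mucl2 (chr15:103899263-103899562, minus strand), a mucin-like gene, held 2 SSB and 8 AP positions in 10 libraries. The promoter of Mrgprd (chr7:145314585-145314884, plus strand), which encodes a receptor of sensory neurons for itch and pain, held 0 SSB and 8 AP positions in 4 libraries. The promoter of Rfc3 (chr5:151651159-151651458, minus strand), a subunit of the clamp loader of DNA replication, held 7 SSB and 1 AP position in 7 libraries. The counts are too small to set the assays apart in a promoter. The last 2 hold 1 CCCTAA each. Over the last 3 Mb, 9.83% of 1068 promoters held the motif on either strand, against 10.8% of 5694 promoters of the interior. Of all 32851 promoters in the table, 10.6% held it. The mean GC content was 55.4% at the ends and 55.2% in the interior. The promoters of the last 3 Mb and of the interior included 0 of chromosome 18.

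The density of both lesions fell toward the telomere. In the last 100 kb of the chromosomes, the SSB libraries held 0.506 to 0.765 times the interior density, with a median of 0.641, and the AP libraries 0.512 to 0.714 times, with a median of 0.562. All 24 libraries were below the interior there. The mean reached 0.965 ± 0.0351 (SD, n = 12) for SSBs and 1.004 ± 0.0635 for AP sites between 0.6 and 0.7 Mb, stayed near 1 as far as 1.6 Mb, and stood at 1.28 ± 0.0612 and 1.27 ± 0.0666 between 1.8 and 1.9 Mb. The last 0.5 Mb held 0.601 times the positions per window of the stretch 2.5 to 3 Mb from the end for SSBs (range of the libraries 0.552 to 0.653) and 0.596 times for AP sites (0.541 to 0.666). It was lower in 12 of 12 libraries of each assay (exact sign-flip test, two-sided, p = 0.000488, the smallest that the sign patterns of 12 libraries allow; adjusted p = 0.00134 over 11 tests of this kind). The share of sequence within gene spans was 34.1% in the last 100 kb, 59.3% between 0.6 and 0.7 Mb and 54.9% between 1.8 and 1.9 Mb, so that it was lowest where the density was but did not follow it further inward. Sequence gaps and repeats, in which reads cannot be placed, were not counted here, and their part in the fall was not tested.

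**Figure D1:**
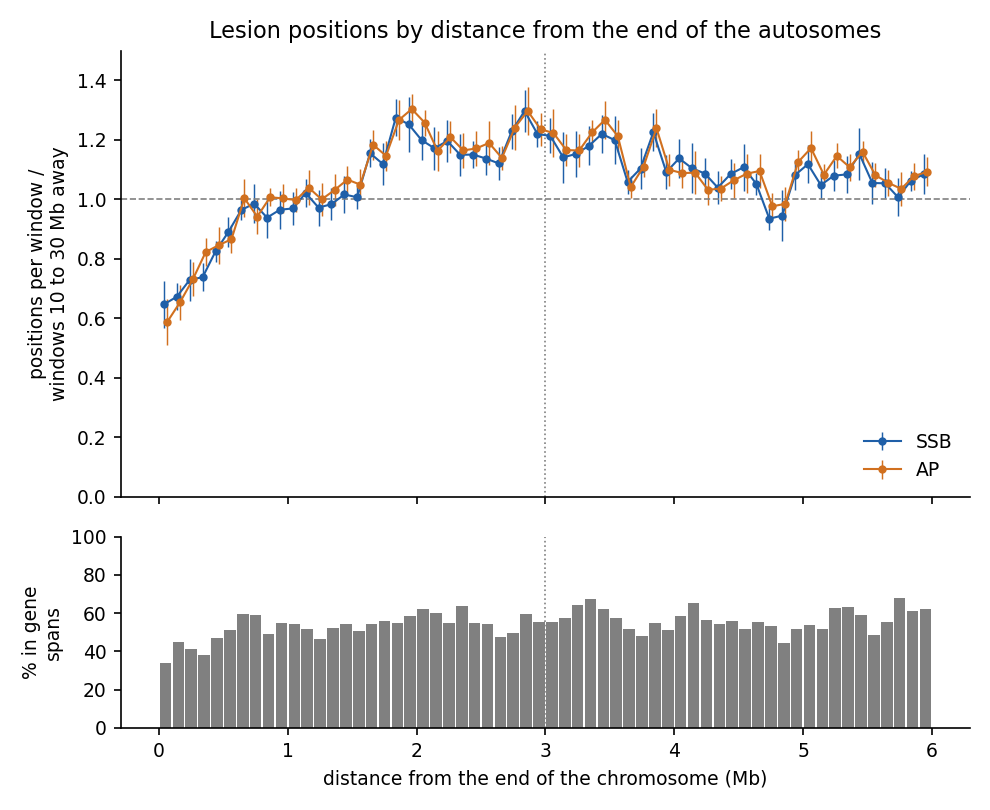
Top, positions per 100 kb window at each distance from the chromosome end, summed over 19 autosomes and divided by the density 10 to 30 Mb from the end (dashed line at 1), as mean ± SD of 12 libraries for SSBs (blue) and AP sites (orange); bottom, the percentage of these windows within gene spans. Both assays climb from 0.647 and 0.588 in the last 100 kb to about the interior density by 0.6 to 0.7 Mb and lie above it from 1.6 Mb to beyond the limit of the end windows at 3 Mb (dotted line).

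Over the whole 3 Mb the low outer stretch and the denser inner stretch nearly balanced. The end ratio, positions per end window over positions per interior window, was 1.01 to 1.07 in the SSB libraries (median 1.03) and 1.01 to 1.13 in the AP libraries (median 1.05). Every library lay above 1. The geometric mean was 1.03 for SSBs (log2 0.05, SD 0.02, n = 12) and 1.05 for AP sites (log2 0.08, SD 0.04, n = 12), each with p = 0.000488 in the exact sign-flip test and adjusted p = 0.00134. Sums of the counts in place of positions gave the same 1.03 and 1.05. The excess depended on 1 chromosome and on the weights. Without chromosome 16 the ratios were 1.001 (p = 0.753) and 1.02 (p = 0.103, exact sign-flip tests). With each chromosome weighed the same, they fell below 1, to 0.975 (p = 0.000977) and 0.984 (p = 0.0547, exact sign-flip tests). The last 1 Mb alone had ratios of 0.836 and 0.846 (exact p = 0.000488 each). The interior windows were themselves dense: all autosomal windows together held 0.852 times their SSB and 0.863 times their AP density. Against all windows over 10 Mb from both ends of a chromosome, the end ratios were 1.20 and 1.21 (exact p = 0.000488 each). The size of the ratio thus changed with the windows compared, and its direction with the length of the end and the weight given to each chromosome.

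Bone marrow had the highest end ratio in both assays. Its SSB libraries had ratios of 1.07 (95% interval 1.05 to 1.09) and 1.05 (1.03 to 1.08), and the 10 libraries of the other tissues ranged from 1.01 to 1.04. Its AP libraries had 1.11 (1.09 to 1.12) and 1.13 (1.11 to 1.14), and those of the other tissues ranged from 1.01 to 1.07. The groups did not overlap in either assay. Bone marrow was 1.04 times the other tissues for SSBs and 1.07 times for AP sites, with p = 0.0152 in each exact permutation test, the smallest that 66 choices of 2 of 12 libraries allow, and an adjusted p of 0.0909 over 12 comparisons of a tissue with the rest. Only 1 tissue of an assay can reach this smallest p. Over 12 comparisons the adjusted p could therefore not fall below 0.0909, and the adjusted value decides nothing. None of the other 5 tissues passed the test against the rest, with unadjusted p of 0.136 to 0.970. For instance, the AP libraries of sperm had ratios of 1.07 and 1.02, which were farther apart than any other pair of replicates of that assay. Over all 6 tissues, the share of the variation that lay between tissues was 0.715 for SSBs (p = 0.0947) and 0.831 for AP sites (p = 0.0590, exact one-sided tests over all pairings of 12 libraries). Without bone marrow these shares were 0.175 (exact p = 0.895) and 0.348 (p = 0.649). The depth of the bone marrow libraries, 458672 and 236000 positions for SSBs and 564343 and 945695 for AP sites, lay within that of the other tissues.

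**Figure D2:**
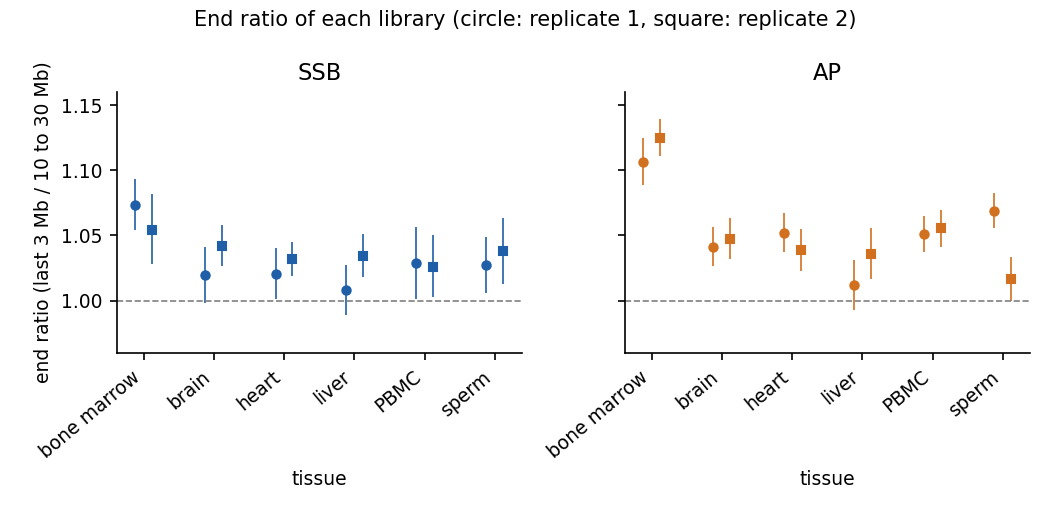
End ratio of each library by tissue, for SSBs (left) and AP sites (right); circles are replicate 1, squares replicate 2, bars are 95% counting intervals and the dashed line marks equal density at the end and in the interior. The bone marrow libraries (1.07 and 1.05 for SSBs, 1.11 and 1.13 for AP sites) lie above the 10 libraries of the other tissues in both panels.

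Gene-rich windows of bone marrow were dense at the ends and in the interior. In end windows with over 50% of their length in gene spans, the bone marrow SSB libraries held 64.2 and 62.9 PPM, above the 55.5 to 58.2 of the other tissues. In the interior windows of the same kind they also stood higher, with 58.9 and 57.4 against 52.4 to 54.8. The bone marrow AP libraries held 62.9 and 62.2 PPM at the ends against 52.1 to 59.9 in the other tissues, whereas in the interior, with 55.6 and 54.6 against 50.5 to 54.6, the lower of them lay just below the highest other library. Within windows of over 50% gene cover, the bone marrow end ratio was 1.04 times that of the other tissues for SSBs and 1.06 times for AP sites (exact p = 0.0152 each). In windows without any gene span, the bone marrow end ratio for SSBs was 1.01 times that of the other tissues (p = 0.848), and for AP sites 1.10 times (p = 0.0152, exact permutation tests). With each chromosome weighed the same, the SSB value was likewise 1.01 (exact p = 0.591) and the AP value 1.06 (p = 0.0152).

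The ends of single chromosomes differed far more than the tissues did. The mean SSB density of an end window lay between 17.3 PPM on chromosome 17 and 80.8 PPM on chromosome 4, a range of 4.67-fold, and the AP means ran from 16.5 to 82.4 on the same 2 chromosomes. In the interior, the means of the chromosomes ranged 2.53-fold for SSBs and 2.60-fold for AP sites. The SSB end ratio was above 1 on 10 chromosomes, below 1 on 7 and did not pass the test on 2, chromosomes 9 and 15. The AP end ratio was above 1 on 9, below 1 on 8 and did not pass the test on 2, chromosomes 9 and 10 (exact sign-flip tests over 12 libraries, Benjamini-Hochberg adjusted over 38 values). The ratios of the assays rose and fell together over the chromosomes (Pearson's r 0.992, Spearman's rho 0.975, n = 19 chromosomes, which share the libraries).

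Chromosome 16 had the highest ratio. Its SSB ratios ranged from 1.74 to 2.53 and its AP ratios from 1.95 to 2.59, with means of 2.07 and 2.32 (adjusted p = 0.000687 each), and the lowest library was higher than the mean of any other chromosome. Its end windows were only moderately dense, with 55.5 SSB PPM, whereas its interior, with 26.9, was the sparsest but for that of chromosome 14 with 25.3. Chromosomes 7, 4, 14, 11 and 2 followed with SSB ratios of 1.42, 1.37, 1.36, 1.34 and 1.26 and AP ratios of 1.41, 1.46, 1.40, 1.42 and 1.36. At the other extreme, chromosome 18 had ratios of 0.364 (SSB libraries 0.301 to 0.432) and 0.334 (AP libraries 0.283 to 0.402), and chromosome 17 of 0.385 (0.290 to 0.506) and 0.363 (0.317 to 0.461). Chromosome 3 followed with 0.688 and 0.687 and chromosome 13 with 0.697 and 0.610 (adjusted p = 0.000687 for each of these). No library of these 4 chromosomes reached the interior density in either assay.

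**Figure D3:**
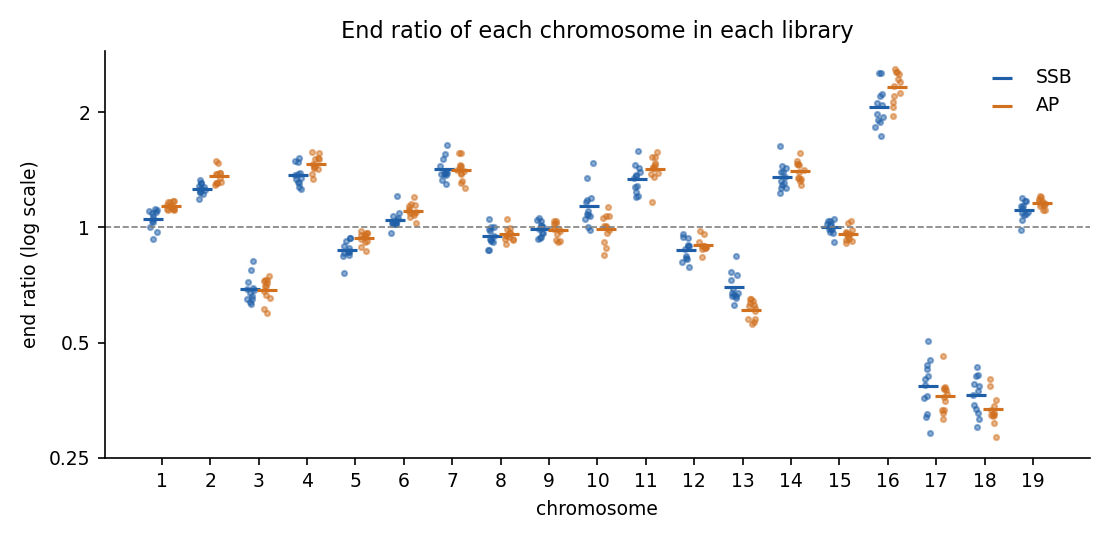
End ratio of each of the 19 autosomes on a log scale; each point is 1 of 12 libraries of an assay (SSBs blue, AP sites orange) and each bar the geometric mean. Chromosome 16 stands highest (2.07 and 2.32) and chromosomes 17 and 18 lowest (0.334 to 0.385), and on most chromosomes the points of all libraries fall on 1 side of the dashed line at 1.

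The fall toward the telomere was common to most chromosomes. The last 0.5 Mb was sparser than the stretch 2.5 to 3 Mb from the end on 17 of 19 chromosomes for SSBs and 16 of 19 for AP sites. The steepest were chromosome 8, with 0.204 and 0.209, and chromosome 12, with 0.216 and 0.167. Chromosome 17 went the other way, with 2.26 times as many SSB and 2.43 times as many AP positions in its last 0.5 Mb. There 27.9% of the sequence lies in gene spans, against 0.389% between 2.5 and 3 Mb. Chromosome 18 had a like contrast in gene cover, 19.9% against 0.400%, but fell toward the end, with 0.747 and 0.748. Chromosome 7 was also denser at the end, with 1.07 and 1.14, at a lower gene cover there (33.6% against 45.1%). Chromosome 13 was denser at the end for AP sites (1.25) but not for SSBs (0.977). The part of gene cover in these gradients was not tested. The very last window was below the interior on 17 of 19 chromosomes in each assay. The last window of chromosome 7, which ends 16837 bp beyond Mrgprd, held 1.73 times the SSB and 1.5 times the AP density of its interior, the highest of the 19. That of chromosome 14 held 0.241 and 0.270 times.

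The gene cover of an end relative to its interior was related to its end ratio. Chromosome 17 had 5.65% of its end within gene spans, against 54.4% in its interior, and chromosome 18 had 31.2% against 57.3%. Chromosome 14 had 86.9% against 23.2% and chromosome 16 had 67.6% against 31.6%. The end of chromosome 14 was not dense itself, with 34.3 SSB PPM against a median of 47.0 over the 19 chromosome ends. Over the 19 chromosomes, the ratio of gene cover (end over interior) and the end ratio were correlated with Pearson's r of 0.755 for SSBs and 0.756 for AP sites and Spearman's rho of 0.644 and 0.640, given as a description. They lay on the same side of 1 on 13 (SSB) and 14 (AP) of 19 chromosomes. Chromosome 3 was an exception, with ratios under 0.7 at a gene cover 1.09 times that of its interior.

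**Figure D4:**
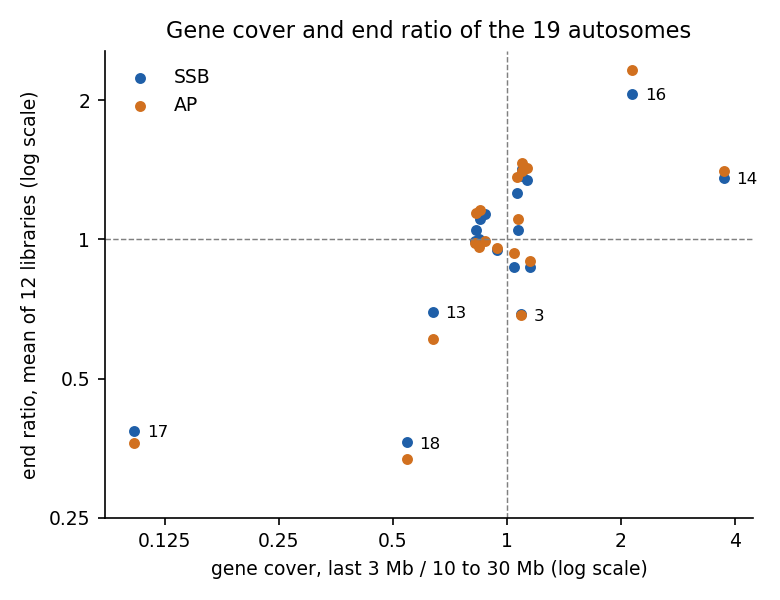
Gene cover of the last 3 Mb over that of the interior (horizontal) against the end ratio (vertical, mean of 12 libraries), both on log scales, for 19 autosomes; SSBs are blue, AP sites orange, and 6 chromosomes are numbered at their SSB point. Chromosomes 17 and 18 lie low in both measures and chromosomes 14 and 16 high in both, while chromosome 3 lies low in the end ratio (0.688 and 0.687) at a gene cover ratio of 1.09.

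Ends and interior were also compared among windows of like gene cover. In the 64 end windows without gene spans, the end held 26.2 ± 2.36 SSB PPM (SD, n = 12) against 26.7 ± 2.15 in 466 interior windows of the kind, a ratio of 0.980 (exact sign-flip test, p = 0.153), and the AP ratio was 1.002 (p = 0.907). In the 190 end windows with up to 50% gene cover, the ratios were 0.974 for SSBs (libraries 0.923 to 1.02) and 1.001 for AP sites (0.960 to 1.08). No test was run for these windows. In the 316 end windows with over 50%, the end held 57.8 ± 2.82 SSB PPM against 54.5 ± 1.88, and 57.7 ± 3.09 AP positions against 53.5 ± 1.40, with ratios of 1.06 and 1.08 (exact p = 0.000488 each). Across the 570 windows, the share in gene spans correlated with SSB density with r of 0.421 and with AP density with r of 0.411. In the interior these values were 0.444 and 0.443 over 3800 windows.

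Single end windows ranged from 4.18 to 119 SSB PPM (median 48.4) and from 4.62 to 116 AP positions (median 50.4). The ends were more varied than the interior: the 90th percentile was 5.08 times the 10th for SSBs and 5.31 times for AP sites, against 3.75 and 3.94 times in the interior. Apart from a window on chromosome 13, which is described with the differences between assays, the densest windows lay on chromosomes 2, 4 and 11. The window chr4:154958116-155058115 held 116 ± 31.3 SSB and 116 ± 21.9 AP PPM (SD, n = 12 each) and overlaps Plch2, a phospholipase C, Pank4, of the pantothenate kinase family, and Hes5, a transcriptional repressor downstream of Notch. Its neighbour chr4:155058116-155158115 (Morn1, Plch2 and Rer1, which retrieves proteins to the endoplasmic reticulum) had an SSB mean of 109. The window chr4:154158116-154258115 (Megf6 and Tprgl) likewise had 109, and the window chr4:154458116-154558115, within Prdm16, a regulator of brown fat, had 105 AP positions. On chromosome 11, chr11:119982548-120082547 (Aatk, Baiap2 and Cep131) held 108 SSB and 104 AP positions. On chromosome 2, chr2:180313229-180413228 with Gata5 had 105 AP positions. In all of these windows at least 94 of the 100 stretches of 1 kb held positions of each assay, and no stretch held over 3.16% of them.

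The sparsest windows lay on chromosomes 5, 8, 12, 14, 17 and 18. The last window of chromosome 14, chr14:124702247-124802246, holds no gene and had 6.18 SSB and 6.58 AP PPM. On chromosome 18, windows 0.3 to 0.4 Mb and 0.1 to 0.2 Mb from the end had 4.18 and 8.77 SSB and 4.62 and 6.05 AP positions. The window chr5:151534551-151634550 (Vmn2r18, a vomeronasal receptor gene) had 7.63 SSB positions, chr17:92185636-92285635 had 8.38, chr12:119729027-119829026 had 7.53 AP positions and chr8:129101024-129201023 (Ccdc7b) had 7.55. Only 15 to 32 of the 100 stretches of 1 kb in these windows held a position, over all 12 libraries of an assay.

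SSBs had slightly lower end ratios than AP sites. Within a sample, the SSB end ratio was 0.981 times the AP end ratio (mean difference of log2 ratios −0.03, SD 0.03, n = 12 samples), and it was lower in all samples but 1 of 12 (paired exact sign-flip test, p = 0.00830, adjusted p = 0.0152). Unpaired, the same difference had p = 0.0691 (permutation test, 100000 resamples), and without chromosome 16 the paired p was 0.0542. On single chromosomes, the ratios of the assays differed on 9 of 19 after adjustment. SSBs stood lower on 7, most on chromosome 16, where SSB over AP was 0.890 and 0 of 12 samples were higher for SSBs. Chromosome 1 had 0.922, chromosome 2 had 0.926, chromosome 5 had 0.930, chromosome 4 had 0.936, chromosome 6 had 0.946 and chromosome 19 had 0.957. SSBs stood higher on chromosome 10, by 1.15 times in 11 of 12 samples (adjusted p = 0.00928), and on chromosome 13, by 1.14 times in 12 of 12 samples (adjusted p = 0.00309, exact sign-flip tests adjusted over 19 chromosomes). The 30 end windows of chromosome 13 held 30.7 SSB and 27.0 AP PPM on average. A single window among them, that of Tmem267 described below, held 119 SSB and 41.1 AP PPM. The ratio without that window was not computed.

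Few single windows differed between the assays. Of 505 end windows tested, 17 differed between the assays (edgeR's quasi-likelihood test with the sample as a block, Benjamini-Hochberg over 20758 windows), 3.37% against 2.4% over all windows tested. SSBs were higher in 14 (2.77% against 1.67% over all windows) and AP sites in 3 (0.594% against 0.732%). DESeq2, which gave an adjusted p for 226 end windows, called 4 (1.77% against 1.45% of the 5465 windows with such a p), and SSBs were higher in all 4 (1.77% against 1.34%). The median log2 difference was −0.02 over the end windows and 0.00 over all windows.

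The largest difference was in chr13:119520762-119620761, 0.7 to 0.8 Mb from the end, which overlaps Tmem267. Its SSB libraries held 98.6 to 164 PPM (median 118) and its AP libraries 30.1 to 51.9 (median 41.2), so that the assays did not overlap and SSBs were higher in 12 of 12 samples (log2 1.53, edgeR adjusted p = 1.70e-42). Only 23 of its 100 stretches of 1 kb held any position in either assay. The densest, chr13:119601762-119602761, held 120 of the 659 SSB positions, from 12 libraries, and outside the densest stretch of each assay SSBs were still 2.68 times AP sites. The ranges of the tissues overlapped there, with bone marrow at 100.3 and 119, brain at 99.6 and 139, heart at 98.6 and 123, liver at 117 and 124, PBMCs at 164 and 111 and sperm at 109 and 129 SSB PPM. The window chr9:124192623-124292622 (Gm39469 and 2010315B03Rik) followed, with 42.4 to 75.6 SSB (median 49.3) and 12.1 to 28.9 AP PPM (median 17.99), again without overlap (log2 1.46, edgeR adjusted p = 3.02e-18). A stretch of 1 kb, chr9:124256623-124257622, held 101 of its 277 SSB positions, and 28 of its 100 stretches held any SSB position. Without the densest stretches SSBs were 2.27 times AP sites.

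The last windows of chromosomes 19 and 2 also had more SSBs. That of chromosome 19, chr19:61230885-61330884, which holds no protein-coding gene, had 34.7 to 75.2 SSB (median 58.8) and 25.2 to 46.1 AP PPM (median 34.4; log2 0.77, edgeR adjusted p = 2.04e-06). Of its 315 SSB positions, 137 lay in chr19:61266885-61267884, a stretch that all 12 SSB and all 12 AP libraries hit, and outside it the excess of SSBs was 1.17 times, in 8 of 12 samples. That of chromosome 2, chr2:181913229-182013228 (Gm14496 and Gm40035), had 54.4 ± 8.86 SSB and 35.8 ± 13 AP PPM (log2 0.62, edgeR adjusted p = 0.000455). Here 40.9% of the SSB and 41.2% of the AP positions lay in the same 1 kb, chr2:181917229-181918228, and outside it SSBs were 1.51 times AP sites.

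The other 10 windows with more SSBs had no such stretch, with 1 exception. Of these, 5 on chromosome 10 lay 1.7 to 3 Mb from the end. The first, chr10:128694995-128794994, overlaps Dgka, a diacylglycerol kinase, Pmel, which forms the fibrils of pigment granules, and Pym1, and held 74.6 ± 13.4 SSB and 47.9 ± 12.4 AP PPM (log2 0.63, edgeR adjusted p = 1.23e-05). The others held Lrp1, an endocytic receptor, Stat6, the transcription factor of interleukin-4 signalling, and Nemp1 (log2 0.46), Ikzf4, Rab5b and Suox (0.44), Sarnp, Dnajc14 and Gdf11 (0.43), and Erbb3, Esyt1 and Pa2g4 (0.37). On chromosome 15, the windows of Espl1, the protease that opens cohesin at anaphase, Rarg and Myg1 (0.47) and of Sp1, Sp7 and Aaas (0.40) were called, on chromosome 4 that of Ccnl2, Dvl1 and Ankrd65 (0.43) and on chromosome 8 that of Irf2bp2 (0.38). The exception was a window 0.1 to 0.2 Mb from the end of chromosome 1 that overlaps a part of Cr2, a complement receptor of B cells (0.59). Of the SSB positions of this window, 58.2% lay in 1 kb. The whole span of Cr2 held 54 SSB positions, too few for that stretch to lie within the gene. AP sites were higher in chr2:181713229-181813228 (Myt1, a zinc finger factor of neural cells, and Oprl1, the nociceptin receptor), with 77.7 ± 13.9 against 59.4 ± 16.8 PPM (log2 −0.40, edgeR adjusted p = 0.0180). They were also higher in chr11:121582548-121682547 (B3gntl1 and Tbcd, a tubulin-folding cofactor; log2 −0.36, adjusted p = 0.0402), in 12 of 12 samples, and in chr4:153358116-153458115 (Ajap1; log2 −0.34, adjusted p = 0.0419).

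**Figure D5:**
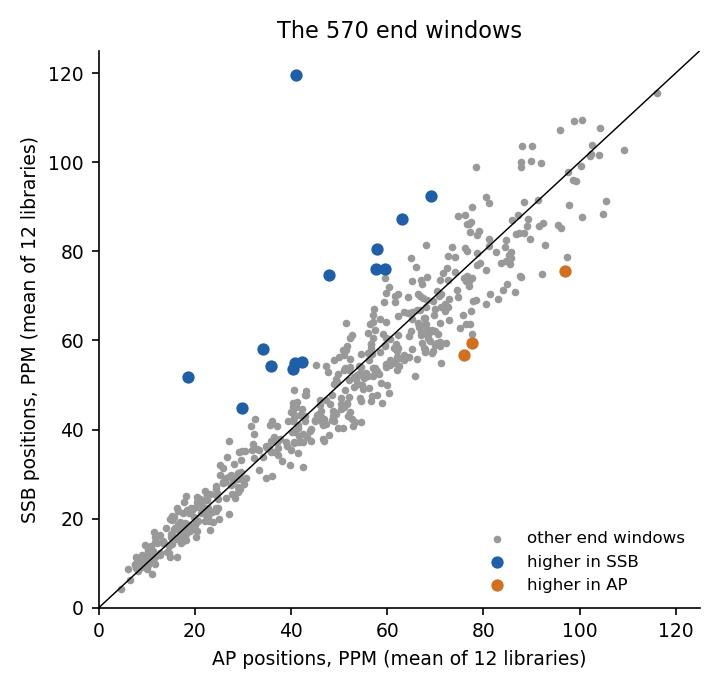
Each of the 570 end windows by its mean AP (horizontal) and SSB (vertical) PPM over 12 libraries, with the line of equal values; windows called higher in SSBs are blue and in AP sites orange. Most windows follow the line (Pearson's r 0.954), and the Tmem267 window at 119 SSB against 41.1 AP positions lies farthest above it.

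Few single windows differed between tissues. For SSBs, 2 of 503 end windows tested did so (0.398% against 0.301% over 20959 windows, edgeR's quasi-likelihood test, Benjamini-Hochberg), and DESeq2 called 0, against 0.00477% over all windows. The first was the Plch2, Pank4 and Hes5 window on chromosome 4 (adjusted p = 0.0344). It held 148 and 139.8 SSB PPM in bone marrow, 138 and 136 in brain, 147 and 121 in PBMCs, 117 and 107 in liver, 85.1 and 119 in heart and 85.3 and 43.1 in sperm, so that sperm was lowest on average. The second was chr11:120182548-120282547, which overlaps Bahcc1 (edgeR adjusted p = 0.0464). It held 144 and 127 in bone marrow, 98.7 and 127 in liver and 116 and 117 in heart. Brain had 102 and 117, PBMCs 88.9 and 62.1 and sperm 48.0 and 93.3. Neither was called without sperm or without bone marrow. For AP sites, 0 of 551 end windows differed (0% over 23206 windows), with 27 at an unadjusted p under 0.05 (4.9% against 4.07% of all windows) and 0 by DESeq2. In simulated libraries the test recovered 65% of 2-fold and 0.5% of 1.5-fold differences of 1 tissue for SSBs, and 68% and 2% for AP sites, so that differences of the size of the end ratios were not detectable in single windows at this depth.

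Since bone marrow stood apart in the end ratio, it was also compared with the other 5 tissues window by window, a comparison chosen after the tissue values were seen. For SSBs, 7 of 503 end windows were called (1.39% against 1.38% over all windows): 6 were higher in bone marrow (1.19% against 1.26% over all windows) and 1 was lower (0.199% against 0.119%). The median log2 difference was 0.11 over the end windows and −0.01 over all windows, and 60.6% of the end windows were above 0 against 49.3% of all. For AP sites no window was called (0% over all windows). At an unadjusted p under 0.05, 59 end windows were higher (10.7% against 3.16% of all) and 4 lower (0.726% against 2.42%). The AP median was 0.13 against 0.00, and 71.9% of the end windows were above 0 against 50.9%. For both assays these shifts come from the same positions as the end ratio. They restate the higher end ratio of bone marrow and are no separate support for it. The clearest call was the window chr4:155058116-155158115 (Morn1, Rer1 and Plch2), with 129 and 199 SSB PPM in bone marrow and 68.7 to 126 in the other 10 libraries (log2 0.72, edgeR adjusted p = 0.00830). The window chr11:120882548-120982547, with Slc16a3, an exporter of lactate, Csnk1d, a casein kinase of the circadian clock, and Ccdc57, had 124 and 80.5 in bone marrow and 47.7 to 102 elsewhere (log2 0.84, adjusted p = 0.0108), with overlap. The others that were higher held Erbb3, Esyt1 and Pa2g4 (chromosome 10, log2 0.74), Ano10 (chromosome 9, 0.83), Tbcd and Zfp750 (chromosome 11, 0.78) and Aatk, Baiap2 and Cep131 (chromosome 11, 0.62). In each both bone marrow libraries lay above all others. Since the windows were picked by this same difference, the lack of overlap is no separate support. The share of windows without overlap was not counted over all windows. The window that was lower, chr13:117420762-117520761, had 6.54 and 4.24 in bone marrow and 19.6 to 34.7 elsewhere (log2 −2.10, adjusted p = 0.0329). It holds no protein-coding gene. Of its AP libraries of bone marrow, with 14.2 and 25.4, the first lay below the 18.7 to 27.4 of the other tissues and the second among them.

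The strands were hit about equally at the ends. The plus strand held 49.6% to 51.4% of SSB positions in the last 3 Mb (median 50.5%) and 49.97% to 51.5% of AP positions (median 50.9%). The share differed from that in the interior by 0.338 percentage points for SSBs (SD 0.718, n = 12, exact sign-flip p = 0.134) and by −0.138 for AP sites (SD 0.544, p = 0.395). In the last 100 kb the plus strand, on which the telomere repeat reads TTAGGG, held 44.6% to 54.9% of SSB positions and 47.9% to 57.9% of AP positions, with differences of 1.60 (SD 2.91, p = 0.0854, exact sign-flip test) and 1.43 (SD 3.06, p = 0.132) percentage points. A single library held only 102 to 589 positions there, and the size of strand difference that could be detected was not tested.

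Positions that were recorded more than 1 time were slightly more frequent at the ends for SSBs. A count above 1 was found at 0.175% to 1.32% of SSB positions in the last 3 Mb (median 0.456%) and at 0.138% to 1.24% in the interior (median 0.448%). The share was higher at the end in 10 of 12 libraries, by 0.0439 percentage points on average (SD 0.0397, exact sign-flip p = 0.00488, adjusted p = 0.0107). For AP sites it was higher in 5 of 12 (0.00488 percentage points, SD 0.0486, exact p = 0.759). The nucleotides with the highest sums lay in windows described above. For SSBs they were position 61267165 of chromosome 19 on the plus strand, 63719 bp from the end, with a sum of 17 over 8 libraries, and position 119599154 of chromosome 13 within Tmem267, with 16 over 8 libraries. For AP sites they were position 195241757 of chromosome 1, with a sum of 10 over 6 libraries, and position 181918009 of chromosome 2 within Gm40034, with 10 over 5 libraries. No position was left out of the ratios above for this, and without positions found in 2 or more of the 24 libraries the end ratios were 1.03 and 1.05.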

How the data were processed

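SSBs and AP sites were mapped by the authors with SSiNGLe and SSiNGLe-AP in 6 tissues of 2 male C57BL/6J mice aged 24 months, and 24 libraries were used, 2 per tissue and assay. For each library the authors deposited a list of lesion positions, each with its strand and the raw count recorded there, neither normalized nor pooled. The submitters' processing notes name GRCm38/mm10 and RSEM 1.2.28; the aligner and filters of these lists are not given in the sources used here. RNA and younger animals were not analysed here. Groups followed the sample labels.

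Each position was counted 1 time in windows of 100 kb tiled from the chromosome end. Ratios of densities were tested over libraries with exact sign-flip or permutation tests. Windows were tested with the quasi-likelihood test of edgeR 4.0.16 (TMM, all positions as library size, filterByExpr, Benjamini-Hochberg over all windows tested, threshold 0.05) in R 4.3.3, with DESeq2 1.42.0 as an alternative. PPM are the positions of a window per 1000000 positions of the library. Gene spans and promoters were those of RefSeq (GRCm38.p6), without exons or strand for the spans. The exact tests were enumerated in Python 3.11.15 with numpy 2.4.6 and pandas 2.3.3. The depth was 225011 to 1041983 positions a library. The fits were tested on simulated data: the SSB against AP fit recovered 78% of 200 windows changed 1.5-fold and 96.5% of 200 changed 2-fold, among 20685 and 20692 windows.

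The labels state that the SSB and AP libraries of a sample share that sample, and the assay comparisons were paired by it. They do not state whether a replicate number marks the same animal in different tissues. Deviations of same-numbered libraries of different tissues correlated with −0.0183 to 0.00676 (SSB) and −0.156 to 0.0831 (AP), and those of the SSB and AP libraries of a sample with −0.00107 to 0.0212.

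Windows were named by a rule: per assay the 5 densest and 5 sparsest end windows, the 5 of smallest p in each direction between assays and up to 5 per tissue fit, with at most 3 protein-coding genes each, and the protein-coding gene nearest to each end. The other called windows were named after their values were seen. The windows, lists and tests were chosen with earlier results of these data known. Alternatives covered counts, weighting, window choice, filters, normalization, replicates, tissues and pairing. The comparison of bone marrow with the other tissues by window, the end ratios without bone marrow or without the last 0.5 Mb, and the repeats of the chromosome counts and of the bone marrow difference under other settings were chosen after the data were seen. The values of 1 dense window are not reported here.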

Additional observations from a re-analysis of the deposited data

Results flagged for a closer look

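The end ratio differed between the assays within samples, with SSB over AP at 0.981, by a paired test of the difference itself (exact sign-flip test, p = 0.00830). By the same test, adjusted over 19 chromosomes, SSB over AP of the end ratio was 0.922 on chromosome 1, 0.926 on chromosome 2, 0.936 on chromosome 4, 0.930 on chromosome 5, 0.946 on chromosome 6, 0.890 on chromosome 16 and 0.957 on chromosome 19. It was 1.15 on chromosome 10 and 1.14 on chromosome 13. On chromosome 13 the Tmem267 window and on chromosome 10 the 5 windows from Lrp1 to Sarnp are among those called higher in SSBs, and their part in the difference was not tested. No group of libraries was large enough for a test of outlying libraries, since each tissue and assay has 2.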

How the results depend on the processing

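The end ratio of SSBs was 1.03 and turned below 1 with each chromosome weighed the same (0.975), without the densest 1% of windows (0.997; these were chosen by the density itself, 24 at the ends and 39 in the interior), in the last 1 Mb (0.836) and in windows without gene spans (0.980). The SSB ratio was also below 1 in windows with up to 50% gene cover (0.974), where no test was run. The end ratio of AP sites was 1.05 and turned below 1 with chromosomes weighed the same (0.984) and in the last 1 Mb (0.846). In windows without gene spans it was 1.002, no longer past the threshold. With 1 chromosome left out the ranges were 1.001 to 1.07 and 1.02 to 1.10, with 1 replicate left out 1.03 to 1.04 and 1.05 to 1.06. SSB over AP (0.981) kept its direction everywhere and lost the threshold with chromosomes weighed the same (0.991), in the last 1 Mb (0.988), against all windows over 10 Mb from both ends (0.991), in windows without gene spans (0.978) or over 50% within them (0.984), and without pairing (0.981), and with 1 chromosome left out it ranged from 0.975 to 0.986. The share between tissues for AP sites passed the threshold with chromosomes weighed the same (0.894), without the densest 1% (0.871), in the last 1 Mb (0.926) and without sperm (0.942), and ranged from 0.718 to 0.950 with 1 replicate and from 0.800 to 0.865 with 1 chromosome left out. With the replicate number as a block these shares were 0.765 (SSB) and 0.832 (AP), each with exact p = 0.111, and the block changed no other call. Bone marrow over the other tissues did not pass after adjustment over 12 comparisons, which no tissue could have passed with this number of libraries. For SSBs its unadjusted p also went above 0.05 with chromosomes weighed the same (1.01) and in windows without gene spans (1.01). With 1 replicate left out it ranged from 1.03 to 1.04 for SSBs and from 1.06 to 1.08 for AP sites. With 1 bone marrow library the smallest p possible is 0.0909, so those tests say nothing. The 2 SSB windows that differed between tissues were 0 with no normalization factor, at equal depth, by DESeq2, and without sperm or bone marrow, 4 on a fixed grid, and 0 to 4 with 1 replicate left out (0 without bone marrow replicate 1). The 14 windows higher in SSBs were 6 at equal depth and 4 by DESeq2, and the 3 higher in AP sites were 0 in both and 1 to 2 with a replicate left out in 6 of 12 cases. Without pairing these counts were 16 and 4. With 1 replicate left out, the strand differences for SSBs ranged from 0.262 to 0.473 percentage points in the last 3 Mb and from 1.297 to 2.22 in the last 100 kb, passing the threshold in 1 and 2 of 12 cases, and the difference in counts above 1 for AP sites ranged from −0.00573 to 0.0108. The gradient and the numbers of chromosomes above and below their interior kept direction and threshold under every setting run for them. The cause of these changes was not tested, apart from the smaller number of positions at equal depth.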
